A study of Mus musculus with 6 samples.

Results

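Histone genes fall into a class whose messages end without a poly(A) tail and a class whose messages carry one, and both were read here in libraries primed on poly(A). The replication-dependent genes were taken as the protein-coding genes of the GENCODE M21 mouse annotation whose symbols start with Hist1h, Hist2h, Hist3h or Hist4h, and the replacement histone genes as those starting with H2af, H3f or H1f. The rule gave 67 replication-dependent and 15 replacement genes, 82 in all, beside 47643 genes of all kinds listed in each count table. Identifiers of 65 of the 67 and of all 15 were in the tables, and Hist1h2bm and Hist1h2bh were not analysed here. The samples were tumor cells labelled CD45-EPCAM+, which by the study's methods were also sorted as negative for the endothelial marker CD31 and the fibroblast marker PDGFRα, from mammary tumors of female mice of the transgenic strain FVB/N-Tg (MMTV-PyVT)634Mul/J, also called MMTV-PyMT, in which the MMTV promoter drives polyoma middle T antigen in mammary epithelium. There was 1 group of 6 tumors, numbered 1 to 6 as in the labels, and every mouse had received B20-4.1.1, an antibody against VEGF-A, at 5 mg/kg by intraperitoneal injection 2 times per week for 6 weeks from 7 weeks of age. Which tumors belonged to the low or high hypoxia class of the study could not be taken from the labels, so tumors were compared with each other and not by class.

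Replication-dependent histone messages supply the nucleosomes of newly copied DNA and are made in S phase. Their genes lie in clusters and lack introns for the most part, and the message is cut just after a short stem-loop instead of being polyadenylated. SLBP binds the stem-loop, and the U7 small nuclear RNP with the cleavage factors cuts downstream of it. Replacement histones, such as H3.3, H2A.Z and H2A.X, enter chromatin outside replication, and most of their messages are spliced and polyadenylated. Some replication-dependent genes also make a longer polyadenylated message, from a signal downstream of the stem-loop, mainly in cells that have stopped dividing or that differentiate. A library primed with oligo(dT) reads tailed messages, and a message without a tail is read only if the primer finds another stretch of A.

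The ends of the annotated messages set the classes apart. A stem-loop of the histone type (GGNNNTTTNNANNNCC on the message strand, with all 6 stem pairs formed, around a loop of 4 bases) was found within 150 bases after the stop codon in 44 of the 67 replication-dependent genes, in 1 of the 15 replacement genes and in 0.226% of the 21674 protein-coding genes. It began 22 to 59 bases after the stop codon, with a median of 32. The share of all protein-coding genes includes the members of both classes. Outside them only Cyp17a1, H2bfm, Ppm1b and Ttc14 had such a stem-loop. Of the 23 replication-dependent genes without one, 15 had an annotated end of at most 25 bases after the stop, so there was little sequence to search. The remaining 8 had longer ends, among them Hist1h2bc and Hist2h2be. The replacement gene with a stem-loop was H2afx, whose message is known to be made in both forms. Sites of genes with many counts, of Hist1h4b for its different stem and of H2afx for comparison, are printed below with the stem-loop in capitals, in GRCm38 coordinates and as read on the message strand, from the GENCODE M21 transcripts.
Hist1h1c (chr13:23739507-23739532, plus strand): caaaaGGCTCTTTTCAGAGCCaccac
Hist3h2a (chr11:58955167-58955192, plus strand): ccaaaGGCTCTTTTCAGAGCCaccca
Hist1h1e (chr13:23621777-23621802, minus strand): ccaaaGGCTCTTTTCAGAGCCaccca
Hist1h2bj (chr13:22043633-22043658, plus strand): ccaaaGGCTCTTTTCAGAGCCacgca
Hist1h4i (chr13:22040961-22040986, minus strand): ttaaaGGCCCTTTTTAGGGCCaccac
Hist1h4h (chr13:23531453-23531478, plus strand): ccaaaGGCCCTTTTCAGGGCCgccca
Hist4h4 (chr6:136803993-136804018, minus strand): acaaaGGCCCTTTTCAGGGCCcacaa
Hist2h4 (chr3:96262934-96262959, minus strand): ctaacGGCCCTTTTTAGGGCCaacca
Hist1h4b (chr13:23757361-23757386, plus strand): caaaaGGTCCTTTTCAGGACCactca
H2afx (chr9:44335235-44335260, plus strand): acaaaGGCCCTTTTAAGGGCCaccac

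The stem differed between H4 genes and the rest. The core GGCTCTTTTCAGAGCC stood in 26 genes of H1, H2A, H2B and H3, and its loop variant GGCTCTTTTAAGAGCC in 6 genes of H1, H2B and H3. All 11 H4 genes with a stem-loop had other cores, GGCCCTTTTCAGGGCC in 7, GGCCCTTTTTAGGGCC in 2 and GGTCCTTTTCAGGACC in 2. The stem of the H2afx site was that of the most frequent H4 core, although H2A.X is an H2A protein. In all, 7 different cores were found in the 45 genes of both classes.

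A polyadenylation hexamer (AATAAA or ATTAAA on the message strand) within the last 50 bases of an annotated coding transcript was present in 17 of the 67 replication-dependent genes (25.4%), in 10 of the 15 replacement genes (66.7%) and in 77.8% of all protein-coding genes. These letters mark where a tail could be added, and no use of the site was measured. The annotated message ran on for at least 100 bases after the stem-loop in 22 replication-dependent genes, and 11 of these ended in a hexamer. It stopped within 100 bases in another 22, and 2 of those ended in one. The GRCm38 positions of the genes follow their family names, with 54 Hist1 genes on chromosome 13, 10 Hist2 genes on chromosome 3, 2 Hist3 genes on chromosome 11 and 1 Hist4 gene on chromosome 6. Many of the genes are near copies of each other, and in 34 of the 65 at least 50% of the 50-base windows that tile the final 300 bases also occurred in another gene, where reads may be lost or split. None of the 15 replacement genes had so many shared windows.

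The libraries held 2509482 to 5893246 counts on genes, with 16.1 to 41.4% of the reads of each file assigned to no gene. Tumor 1 was the deepest library and had the smallest share on no gene, and tumor 2 was the shallowest and had the largest. The part of this in the histone values was not tested. A floor of 3 counts, the most that a count of 0 allows, was 0.509 to 1.20 counts per 1000000 counts on genes (CPM), and covers counting error only. Luminal epithelial markers summed to 3957 to 4874 CPM. Tumor 1 was highest for Krt8 (617 against 218 to 326 CPM), Cldn3 (638 against 238 to 319 CPM) and Krt19 (319 against 164 to 302 CPM). It was lowest for Cdh1 (1176 against 1255 to 1798 CPM) and between for the other 3. Basal epithelial markers summed to 315, 157, 146, 205, 406 and 243 CPM in tumors 1 to 6, highest in tumor 5 and next in tumor 1. Krt14 led this sum, at 241 CPM in tumor 1 and 359 CPM in tumor 5. Krt5 and Trp63 were lowest in tumor 1, at 4.24 and 3.39 CPM, and Mylk was highest there, at 65.7 CPM. Acta2 was at 0 to 1.21 CPM. Endothelial markers were near 0, at 1.59 to 4.12 CPM in sum, and fibroblast markers summed to 14.8 to 21.6 CPM. The immune list summed to 104 to 302 CPM, with S100a8 and Lyz2 leading and Cd3g and Cd79a at 0 in every tumor, and the erythroid list reached 864 CPM in tumor 3 against 5.66 to 69.4 CPM elsewhere. The part of immune, erythroid and basal cells in the histone values was not tested. Tumor 1 stood apart from the other libraries: Malat1, a nuclear RNA, was at 129.6 CPM there and at 6192 to 15222 CPM in the other 5. Values are therefore given with and without tumor 1. Neat1, also a nuclear RNA, was at 1663 CPM in tumor 1, inside the range of the others (789 to 3841 CPM). CPM were not divided by gene length where tumors are compared, since the length of a gene is the same in every tumor. Each message is read near its 3′ end, so division by length may not suit comparisons between genes. Values per kb are given only as an alternative. In bulk samples fewer cells of a type and less RNA per cell cannot be told apart.

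Replacement histone messages made up most of the histone reads. Replication-dependent genes summed to 824, 377, 597, 603, 532 and 527 CPM in tumors 1 to 6, with a median of 564 CPM. Counting error was small beside this range, with a 95% Wilson interval of 801 to 848 CPM in tumor 1 and of 354 to 402 CPM in tumor 2, the shallowest library. Replacement genes summed to 2159, 1337, 2092, 2176, 2418 and 1932 CPM, with a median of 2126 CPM. Both sums were lowest in tumor 2, and the ranges of the classes did not overlap. The replication-dependent sum came to 38.2% of the replacement sum in tumor 1 and to 22.0 to 28.5% in the other 5 tumors, with a median of 28.0% over all 6. With each gene's CPM divided by the length of its longest coding transcript in kb, the median ratio was 49.9%. The size of the ratio thus depends on whether CPM are divided by length, and its direction does not.

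**Figure D1:**
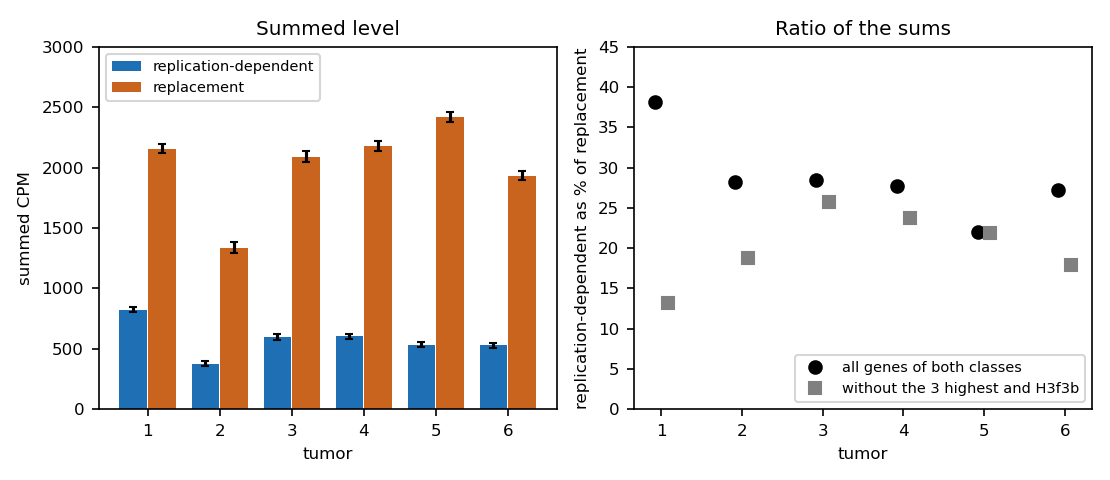
Left, summed CPM of the 65 replication-dependent and 15 replacement histone genes in each of the 6 tumors, with error bars for the 95% Wilson interval of counting. Right, the replication-dependent sum as a percent of the replacement sum, for all genes (circles) and without Hist1h1c, Hist1h2bc, Hist3h2a and H3f3b (squares); tumor 1 is highest at 38.2% in the former and lowest at 13.2% in the latter.

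A few genes carried each sum. Hist1h1c, Hist1h2bc and Hist3h2a together gave 67.0 to 84.3% of the replication-dependent sum, and H3f3b gave 54.6 to 70.4% of the replacement sum. Without these 4 genes the ratio of the classes was 13.2% in tumor 1 and 17.9 to 25.8% in tumors 2 to 6, so tumor 1 moved from the highest to the lowest place. Among the 65 replication-dependent genes, 7 had a mean of at least 10 CPM, 12 lay from 2 to under 10 CPM, 37 had counts with a mean under 2 CPM and 9 had 0 counts in every tumor. Counts were above the floor of 3 in all 6 tumors for 16 genes, in 1 to 5 tumors for 31 and in no tumor for 18. Of the 9 genes at 0, 7 (Hist2h2aa1, Hist2h2aa2, Hist2h3c1, Hist1h2ao, Hist1h2ap, Hist1h2bq and Hist1h2br) shared at least 80% of their end windows with another gene, where a level cannot be read from unique reads. The other 2 were Hist1h2aa and Hist1h2ba, which encode histones of the male germ line.

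**Figure D2:**
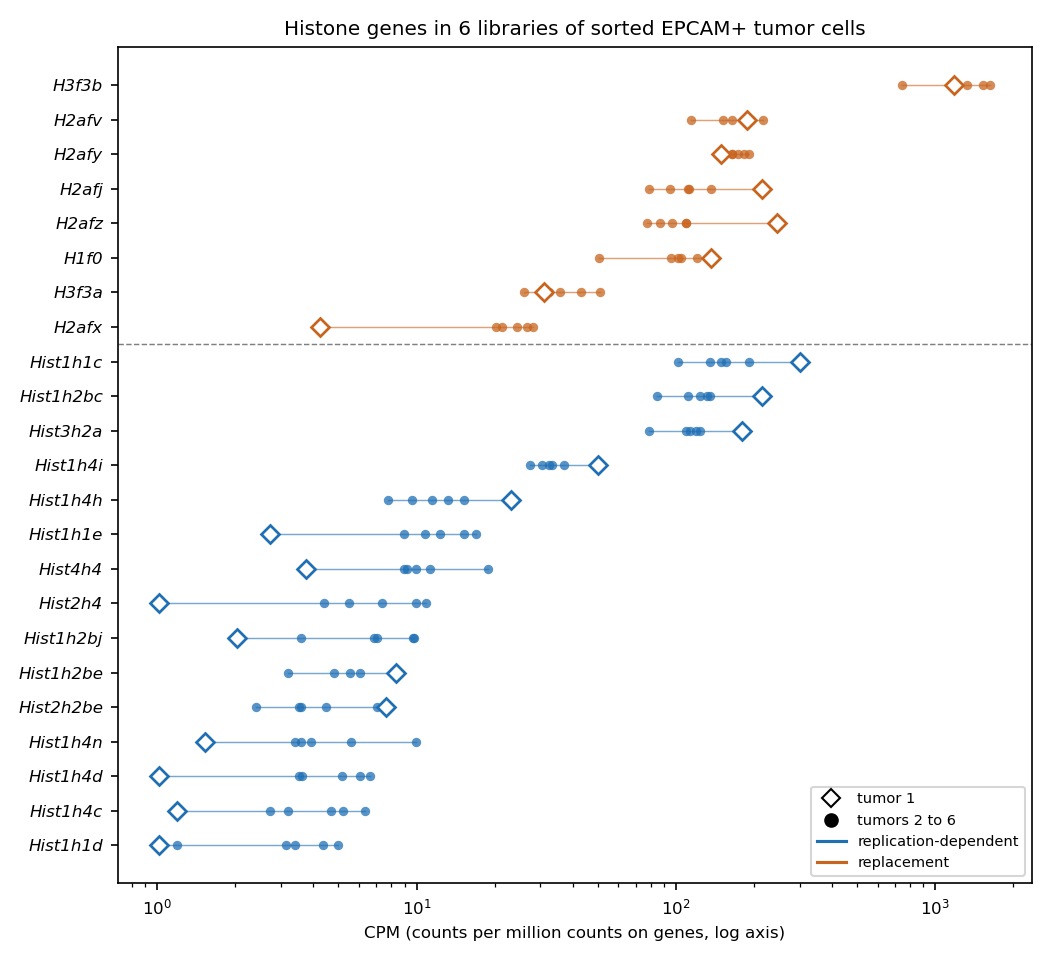
CPM (log axis) of the 8 replacement genes whose mean reached 10 CPM and the 15 replication-dependent genes with the highest means, in tumor 1 (open diamonds) and tumors 2 to 6 (dots), with a line from the lowest to the highest tumor. Tumor 1 is the highest tumor for Hist1h1c (300.2 CPM) and the lowest for H2afx (4.24 CPM) and Hist2h4 (1.02 CPM).

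Linker histones of the replication-dependent class summed to 114 to 305 CPM. Hist1h1c, which encodes H1.2 (chr13:23738808-23740367, plus strand), had the highest mean of all replication-dependent genes, 173 ± 68.9 CPM (mean ± SD, n = 6), with 300.2, 102, 156, 191, 136 and 149.9 CPM in tumors 1 to 6. Tumor 1 was above the other 5 tumors, which spanned less than the distance from their highest to tumor 1. Hist1h1e, encoding H1.4, was at 2.71, 10.8, 8.97, 17.0, 15.2 and 12.3 CPM. Hist1h1d, encoding H1.3, was at 1.02, 1.20, 4.36, 3.40, 4.99 and 3.12 CPM. In these genes tumor 1 was lowest, and for Hist1h1d it lay next to tumor 2, with 6 and 3 counts. The end of Hist1h1e lies inside the longer annotation of Hist1h2be on the same strand, and all of its end windows were shared, so the split of reads between this pair is uncertain.

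Core H2A and H2B genes were each led by a gene near the level of Hist1h1c. Hist3h2a (chr11:58954685-58956830, plus strand), an H2A gene outside the large cluster, was at 179.9, 78.5, 119.5, 124, 114 and 109.5 CPM. Hist1h2bc (chr13:23684199-23692908, plus strand), an H2B gene with no stem-loop in its annotated end, was at 215, 84.9, 124, 135, 111 and 131 CPM. In both, tumor 1 was highest and tumor 2 lowest. The next H2B gene, Hist1h2bj, whose annotated message stops 23 bases after the stem-loop, was at 2.04, 3.59, 9.70, 7.02, 9.78 and 6.83 CPM. Hist1h2be was at 8.31, 3.19, 8.49, 5.53, 4.79 and 6.05 CPM. Hist2h2be, another H2B gene without an annotated stem-loop, was at 7.64, 3.59, 7.03, 4.47, 2.40 and 3.51 CPM. Tumor 1 was lowest for Hist1h2bj, between the others for Hist1h2be and highest for Hist2h2be, for which tumor 3 lay close to it. A mean of at least 2 CPM was reached by 2 of the 18 H2A genes and by 5 of the 16 H2B genes.

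Of the 13 H4 genes, 8 had a mean of at least 2 CPM and 0 were without counts. All H4 genes encode the same protein, so their messages add to 1 pool, which summed to 85.2, 67.7, 114, 85.5, 81.7 and 73.6 CPM. Hist1h4i was highest, at 50.1, 27.5, 37.1, 33.2, 32.5 and 30.5 CPM. Hist1h4h followed at 23.1, 9.56, 15.3, 11.5, 7.79 and 13.3 CPM. Both were highest in tumor 1. Hist4h4, which lies next to the replacement gene H2afj on chromosome 6, was at 3.73, 9.96, 18.9, 11.3, 8.99 and 9.18 CPM. Hist2h4 was at 1.02, 4.38, 9.94, 10.8, 7.39 and 5.47 CPM. These genes peaked in different tumors, tumor 3 for the former and tumor 4 for the latter. Hist1h4n was at 1.53, 3.59, 9.94, 3.40, 5.59 and 3.90 CPM. Hist1h4d was at 1.02, 5.18, 6.06, 3.62, 6.59 and 3.51 CPM. Hist1h4c was at 1.19, 3.19, 6.30, 4.68, 5.19 and 2.73 CPM. All 5 of these were lowest in tumor 1, below each of the other tumors. For Hist2h4 that was 6 counts in tumor 1 against 11 to 51 counts in libraries of less depth.

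H3 had the lowest sum of the replication-dependent classes, with 12 genes at 9.16, 8.37, 15.8, 11.3, 12.8 and 8.79 CPM in all. This is a sum of reads and may fall short of the messages present. Hist1h3e, Hist1h3f and Hist2h3c1 shared 100% of their end windows with another gene, Hist2h3c2 and Hist1h3d 0%, and H3f3a and H3f3b 0%. Messages without a tail may also go unread. The part of both in the low sum was not tested. The highest of them, Hist2h3c2, had a mean of 2.83 CPM, and Hist2h3c1 was at 0. The replacement genes H3f3a and H3f3b, which both encode H3.3, summed to 1209, 785, 1379, 1558, 1669.6 and 1203 CPM, and the ranges of the H3 classes did not overlap.

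Among replacement genes the H3 class was highest. H3f3b (chr11:116021912-116027962, minus strand) had the highest mean, 1264 ± 317 CPM (mean ± SD, n = 6), with 1178, 742, 1328, 1532, 1634 and 1170.2 CPM in tumors 1 to 6. H3f3a, encoding the same protein, was at 31.1, 43.0, 50.9, 26.0, 35.7 and 32.4 CPM. Tumor 1 lay among the other tumors for both, and every tumor held more H3f3b than H3f3a, also per kb of transcript (503 against 12.9 CPM per kb in the means). Of the H2A variants, H2afv, encoding H2A.V, was at 188, 115, 196, 152, 217 and 165 CPM. H2afz, encoding H2A.Z, was at 245, 77.7, 87.1, 96.8, 109.6 and 109.9 CPM. H2afz was far higher in tumor 1 than in the other 5, which lay within 77.7 to 109.9 CPM, while H2afv overlapped. H2afy, encoding macroH2A1, was at 149, 174, 183, 165, 192 and 165 CPM, the narrowest range relative to its level of the 23 members given by tumor. H2afj, encoding H2A.J, was at 214, 112, 111, 79.1, 94.6 and 136 CPM, highest in tumor 1.

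H1f0, which encodes the linker histone H1.0 of slowly dividing and differentiated cells, was at 137, 50.6, 105, 102, 95.4 and 120.3 CPM. Tumor 1 was the highest and tumor 2 the lowest for it. H2afx, which encodes H2A.X, the variant phosphorylated at DNA breaks, was at 4.24, 20.3, 24.5, 21.3, 26.8 and 28.1 CPM. Tumor 1 lay below all others, which did not fall under 20.3 CPM. H1fx, encoding H1.10, had a mean of 6.45 CPM, H2afy2, encoding macroH2A2, a mean of 0.720 CPM with counts above the floor in 3 tumors, and H1foo, H1fnt, H2afb1, H2afb2 and H2afb3, which serve germ cells, were at 0. In order of mean CPM, neighbours from Hist1h1c to H1f0 (Hist1h1c, H2afv, H2afy, Hist1h2bc, H2afj, H2afz, Hist3h2a, H1f0) had overlapping ranges over the tumors, whereas H3f3b lay above and H3f3a below all of them in every tumor. Per kb of the longest coding transcript H3f3b kept the first place, at 503 CPM per kb, and Hist1h2bc came next at 115 CPM per kb, ahead of H2afz at 113 and Hist1h1c at 111 CPM per kb.

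Replication-dependent genes with a longer annotated message had more counts. The 21 genes in the tables with a stem-loop and at least 100 annotated bases after it had a median of the mean CPM of 2.83, and 12 of them reached 2 CPM. The 21 genes whose annotation stopped sooner had a median of 0.697 CPM, and 5 reached 2 CPM, while for the 23 without a stem-loop the median was 0.449 CPM and 2 reached 2 CPM. Shared sequence went along with this, since 16 of the 21 short-ended genes but 4 of the 21 long-ended ones shared at least 50% of their end windows. Among genes with fewer shared windows, the medians were 3.02 CPM for 17 long-ended and 0.660 CPM for 5 short-ended genes. These values describe the genes, with no test, and the part of sharing and of annotation length was not tested. The highest genes of the short-ended group were Hist1h4h, whose 46 annotated bases after the stem-loop end in a hexamer, and Hist1h2bj.

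**Figure D3:**
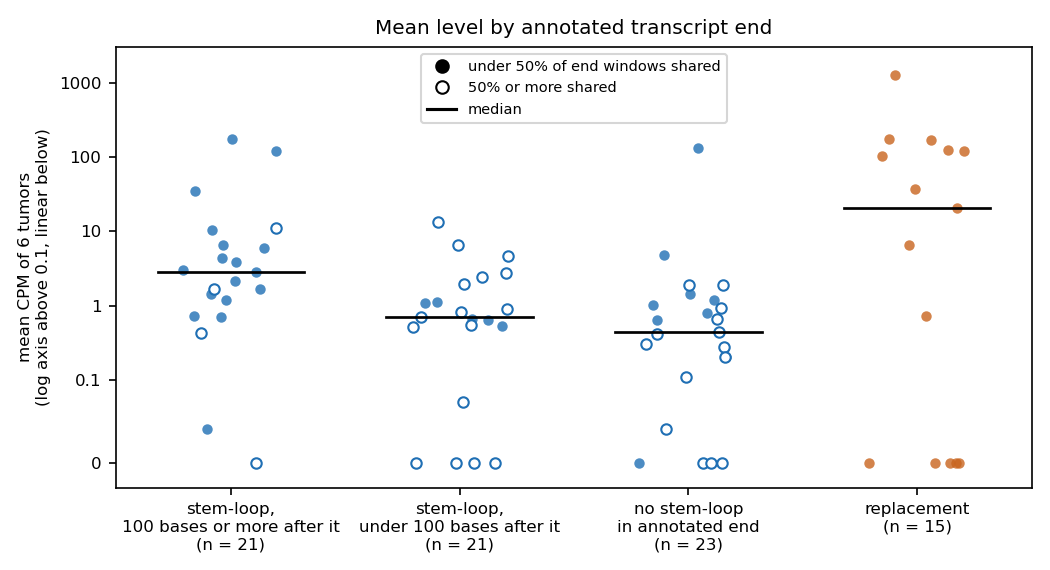
Mean CPM over 6 tumors (log axis above 0.1 CPM, linear below) of each histone gene in the tables, by what its annotated message holds after the stop codon; open circles are genes with at least 50% of end windows shared with another gene and lines are medians. The median was 2.83 CPM with at least 100 bases after the stem-loop, 0.697 CPM with fewer, 0.449 CPM without a stem-loop and 20.9 CPM for replacement genes.

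Tumor 1 split the replication-dependent genes, and few of them lay within the range of the other tumors. Of the 19 whose mean reached 2 CPM, tumor 1 was the highest tumor for 7 and the lowest for 11, against 34.1% and 28.7% of the 12175 genes of all kinds at that level. The share at the highest place was thus near the background, and the share at the lowest was above it. The background was not matched to these genes for level. The log2 of tumor 1 over the median of tumors 2 to 6 had a median of -1.42 for these 19 genes and 0.09 for all 12175. Highest in tumor 1 were Hist1h1c (log2 ratio 1.00), Hist1h2bc (0.80), Hist3h2a (0.66), Hist1h4i (0.62), Hist1h4h (1.01), Hist2h2be (1.09) and Hist2h3c2 (0.50). Lowest were Hist2h4 (-2.86), Hist1h4d (-2.35), Hist1h1e (-2.18), Hist1h4b (-2.13), Hist1h4c (-1.98), Hist1h2bj (-1.79), Hist1h1d (-1.74), Hist1h2bk (-1.49), Hist1h2ae (-1.46), Hist4h4 (-1.42) and Hist1h4n (-1.35). Some of the lowest rest on few counts in tumors 1 and 2, with 6 and 3 for Hist1h1d and 5 and 3 for Hist1h2ae. Hist1h4b had 4 counts in each of the 2 tumors, Hist1h4n 9 in each, and Hist1h2bk 5 and 6. With 1 library there is no replicate of tumor 1, so the log2 ratios compare libraries and carry no test.

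The direction in tumor 1 went partly with a hexamer at the annotated end, and also with the level of the gene. Tumor 1 was highest for the genes with the highest means, Hist1h1c, Hist1h2bc, Hist3h2a, Hist1h4i and Hist1h4h (173 to 13.4 CPM). Of the rest at 2 CPM or more, it was highest only for Hist2h2be and Hist2h3c2. The part of level was not tested. Among the 19 genes, 9 ended in a polyadenylation hexamer, and tumor 1 was highest for 5 of them, lowest for 3 (Hist2h4, Hist4h4 and Hist1h2ae) and between for Hist1h2be. Of the 10 without a hexamer at the end, tumor 1 was highest for 2 (Hist1h2bc and Hist2h3c2) and lowest for 8. Among these 10, Hist1h2bc, highest in tumor 1, and Hist1h1d and Hist1h4d, lowest there, have a hexamer farther from the annotated end. The split by hexamer thus depends on the window searched, which was chosen after values were seen. Summed over all 65 genes, those with a hexamer at the end gave 579 CPM in tumor 1 against 241 to 398 CPM elsewhere, and those without gave 245 CPM against 136 to 216 CPM. Most of the former sum in tumor 1 was Hist1h1c and Hist3h2a, at 300.2 and 179.9 CPM. Most of the latter sum in tumor 1 was Hist1h2bc, at 215 CPM. The hexamer was looked at after the levels had been seen, so the counts are a description. At 2 CPM or more, genes with at least 100 annotated bases after the stem-loop fell on both sides. Tumor 1 was highest for Hist1h1c, Hist3h2a, Hist1h4i and Hist2h3c2 of these. It was lowest for Hist1h1e, Hist4h4, Hist2h4, Hist1h4d, Hist1h4c, Hist1h1d and Hist1h2ae, and between for Hist1h2be. Of the 9 replacement genes at that level, tumor 1 was highest for 4 (H2afz, H2afj, H1f0 and H1fx), lowest for 2 (H2afx and H2afy) and between for 3, with a median log2 ratio of 0.19, and whether the classes differ in this was not tested. H2afx, the replacement gene with a stem-loop, had the lowest ratio of the 9, -2.53, and ends in a hexamer.

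**Figure D4:**
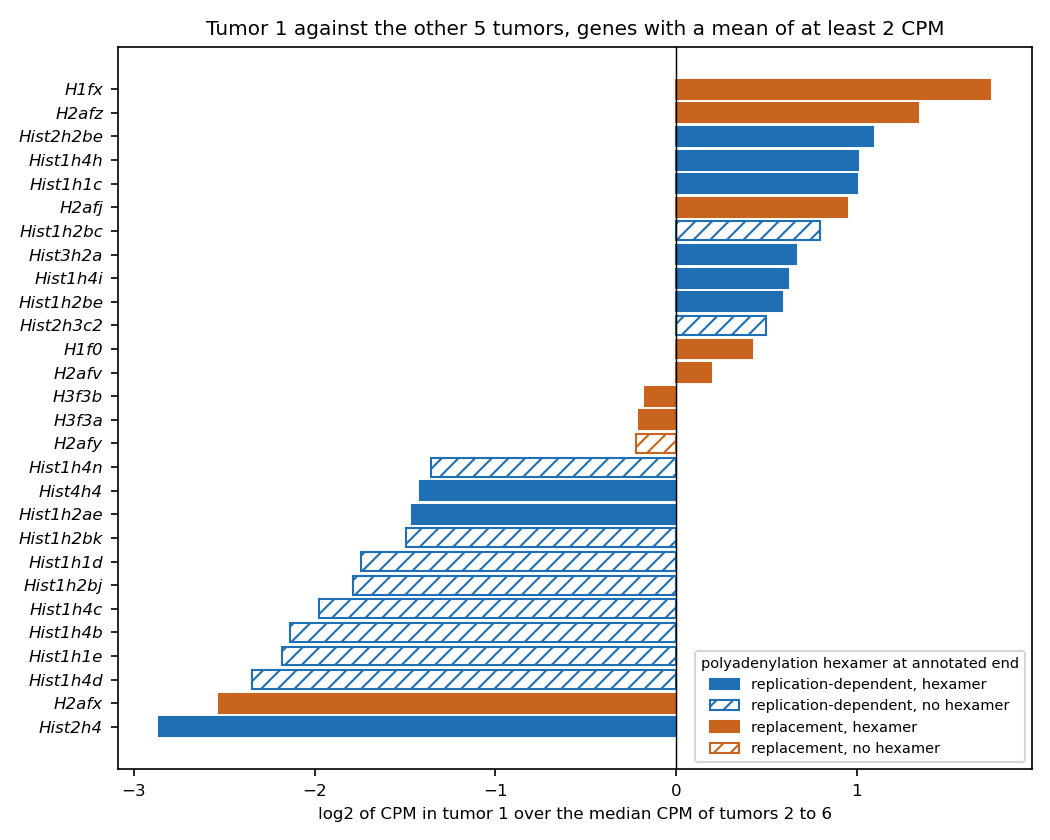
Log2 of the CPM in tumor 1 over the median CPM of tumors 2 to 6 for the 28 histone genes whose mean reached 2 CPM; filled bars are genes with a polyadenylation hexamer within the last 50 annotated bases and hatched bars those without. Of the 10 hatched replication-dependent bars 8 point left, as do 3 of the 9 filled ones.

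Other RNAs without a tail and genes for histone message processing were looked at in the same way. The 9 tail-less RNAs of a list of small nuclear and structural RNAs summed to 32.2 CPM in tumor 1 and to 53.8 to 149 CPM in the others, and the difference lay mainly in Rn7sk, at 18.7 CPM against 34.9 to 135 CPM. Of the 5 at 2 CPM or more, tumor 1 was lowest for 2 and between for 3, where 28.7% of all genes at that level were lowest. Terc, Rn7s1 and Rn7s2 had at most 1 count in any tumor. Of 12 genes for histone message processing, all above 2 CPM, tumor 1 was the highest tumor for 5 and the lowest for 3, near the 34.1% and 28.7% of all genes. Slbp, the stem-loop binding protein, ranged over 15.6 to 37.1 CPM with tumor 1 inside the range. The lowest in tumor 1 were Npat, the activator of histone gene transcription (9.50 CPM against 29.3 to 53.4), Casp8ap2, a partner of the U7 particle (1.70 against 20.9 to 61.3 CPM), and the cleavage factor gene Cpsf2 (18.7 against 26.3 to 43.0 CPM). Highest there were the U7 proteins Lsm10 (39.4 against 16.6 to 19.2 CPM) and Lsm11 (16.6 against 9.37 to 11.6 CPM), the cleavage factors Cpsf3 and Cstf2, and Srrt, a partner of the cap-binding complex. Over all tumors Cpsf3 ranged over 40.2 to 63.5 CPM, Cstf2 over 70.3 to 141 CPM, Srrt over 143 to 347 CPM, Sympk, the scaffold of the cleavage complex, over 36.4 to 74.1 CPM, and Eri1, an exonuclease that trims the stem-loop end, over 35.9 to 62.7 CPM. Of 16 genes on a list of histone chaperones, which also holds the histone gene Cenpa, tumor 1 was lowest for 9 and highest for 3. These counts stand against the same background. Supt16 of the FACT complex was at 3.90 CPM there against 29.3 to 73.4 CPM in the other tumors. Supt16, Casp8ap2 and Npat were singled out after their values had been seen. The part of these differences in the histone values was not tested.

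Tumors 2 to 6 were also compared with each other. Among them the highest tumor was a median of 2.31 times the lowest for the 19 replication-dependent genes, 1.89 times for the 9 replacement genes and 1.92 times for all 12175 genes at that level. The narrowest replication-dependent range was that of Hist1h4i (1.35 times) and the widest that of Hist2h3c2 (5.07 times), which rests on few counts. Tumor 2, the shallowest library, was the lowest of these 5 for Hist1h1c, Hist1h2bc, Hist3h2a and Hist1h4i. The replacement sum was 1337 CPM in tumor 2 against 1932 to 2418 CPM in all other tumors, tumor 1 included.

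Because the replication-dependent messages are made in S phase, each gene was set against an S-phase score, the mean log2(TMM-scaled CPM + 1) of 20 replication genes that are not histones. The score was 3.99, 3.90, 4.22, 4.16, 4.54 and 4.24 in tumors 1 to 6, a narrow range with tumor 5 on top. In edgeR's quasi-likelihood test of the slope over 12543 genes, 0 genes passed a Benjamini-Hochberg adjusted p of 0.05 (0% of those tested), and 1429 (11.4%) had an unadjusted p under 0.05. Of the 24 replication-dependent genes with enough counts to be tested, 0 passed and 3 had an unadjusted p under 0.05, and of the 9 replacement genes 0 passed and 0 did. DESeq2 called 153 of the same genes and 0 members, with 2 replication-dependent genes under an unadjusted 0.05. The p-values measure the spread between these samples only, which the labels name as separate samples. Mouse identifiers in the labels open with the same letters in tumors 1, 4, 5 and 6 and with others in tumors 2 and 3, and what the letters stand for is not stated. With these letters as a term in the edgeR fit, 0 genes passed, 0 members among them, and 5 replication-dependent genes had an unadjusted p under 0.05.

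The 3 were Hist1h1d, with a slope of 3.44 ± 1.40 (SE, log2 level per log2 unit of the score, adjusted p = 0.402 in edgeR's test), Hist1h2ae, with 3.27 ± 1.37 (adjusted p = 0.415), and Hist1h2bj, with 2.93 ± 1.24 (adjusted p = 0.421). Without tumor 1 their slopes were 2.17, 2.48 and 1.71, and 0 replication-dependent and 2 replacement genes were under an unadjusted 0.05. Slopes were above 0 for 16 of the 24 replication-dependent genes, against 5822 of the 12543 genes. The most abundant members were among those with a slope below 0, with Hist1h1c at -0.78 ± 1.00, Hist1h2bc at -0.53 ± 0.91, Hist3h2a at -0.17 ± 0.82 and Hist1h4i at -0.36 ± 0.70 (slope ± SE). Without tumor 1 these were 0.19, 0.27, 0.50 and 0.20. Of the replacement genes, H3f3b had a slope of 1.34 ± 0.76 and H2afx of 1.71 ± 1.35, and H2afj had the lowest, -1.14 ± 0.92. Standard errors ran from 0.63 for H2afy to 1.92 for Hist2h3c2.

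**Figure D5:**
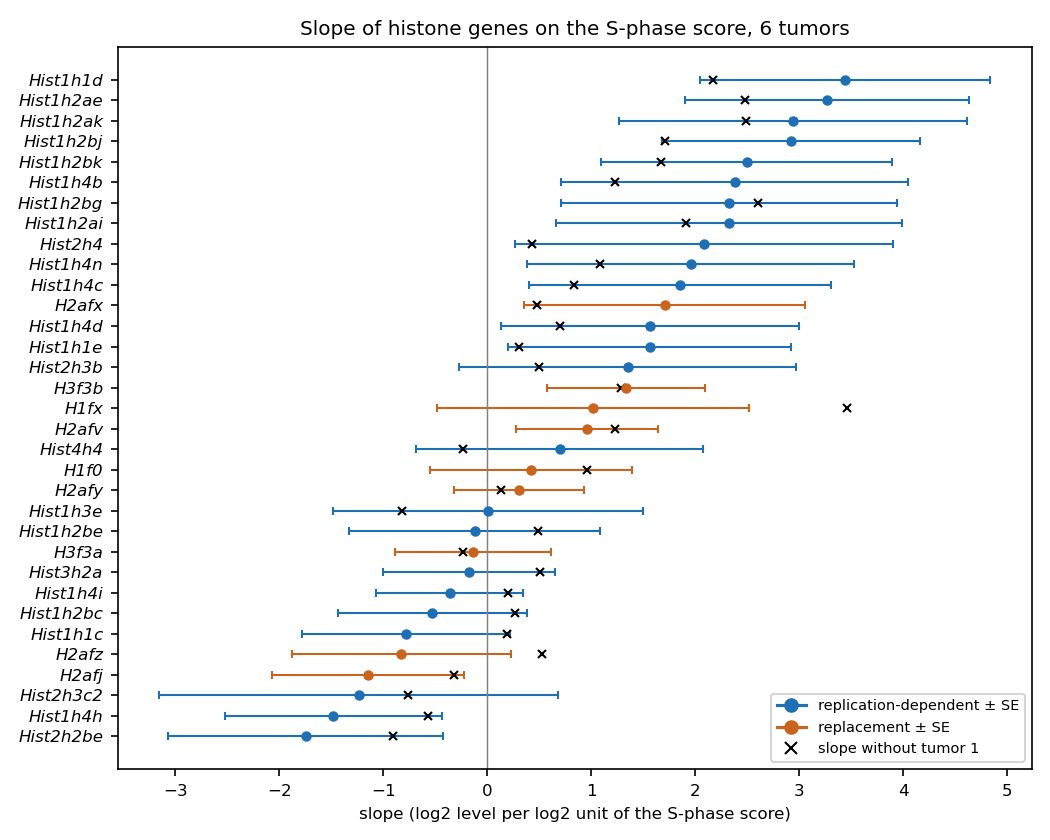
Slope of each tested histone gene on the S-phase score (log2 level per log2 unit of the score, 6 tumors) with its standard error, and the slope without tumor 1 (crosses). Hist1h1d has the highest slope at 3.44; none passed an adjusted p of 0.05.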

How the data were processed

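The authors made QuantSeq FWD 3′ libraries with a module for molecular identifiers of 6 bases, and ran trimming (bbduk), alignment to GRCm38/mm10 (STAR 2.5) and gene counting (HTSeq) on Bluebee. Each deposited table lists raw counts by gene, not normalized. The annotation release, the strand setting and any collapsing by identifiers are not given in the sources used here, so overlapping and antisense genes are uncertain. From these counts, CPM were computed over genes, and slopes were fitted with edgeR 4.0.16 in R 4.3.3 (TMM, filterByExpr with a minimum count of 10 and total of 15, quasi-likelihood test, Benjamini-Hochberg over all genes), without the genes of the score, and with DESeq2 1.42.0 as an alternative. The fits were tested on simulated data, where both missed nearly all of the weakest planted slopes. A count of 0 therefore does not show that genes are unrelated to the score. DESeq2 made a larger share of false calls there than edgeR. Gene models, sequences and positions came from GENCODE M21; 47224 of 47643 identifiers matched it. Stem-loops were searched in annotated transcripts, not in the genome as first planned. Members and lists were chosen with earlier results of these data known, and the level of 2 CPM, the hexamer window and the length scaling after values were seen. Named in each tumor are the replacement genes whose mean reached 10 CPM and the 15 highest replication-dependent genes. Mouse identifiers carry 2 prefixes, with 4 and 2 tumors, too few for values within a prefix, so the prefix was added as a term. All 6 samples were used. Alternatives were other scalings, filters and scores, and each tumor left out in turn.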

Additional observations from a re-analysis of the deposited data

Results flagged for a closer look

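Of 26 measures of histone genes (the 23 given by tumor, both sums and their ratio), 1 tumor lay far from the other 5 in 2, and about 1.3 would do so by chance. The sums of 5 other gene lists had no such tumor. H2afz stood out in tumor 1, at 245 CPM against 77.7 to 109.9 CPM, with a gap to the nearest tumor of 0.807 of the whole range, above Dixon's 95% critical value for 6 values. H2afx also stood out in tumor 1, in the other direction, at 4.24 CPM against 20.3 to 28.1 CPM, with a gap of 0.674 of the range. Tumor 1 is the library with Malat1 at 129.6 CPM, and the part of the library in both values was not tested.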

How the results depend on the processing

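The median sum of the replication-dependent genes moved from 564 to 416 CPM, and that of the replacement genes from 2126 to 1513 CPM, when reads assigned to no gene entered the total, as the larger total fixes. Without the 10 most abundant genes of each library the replacement sum was 2503 CPM. The ratio of the classes, 28.0%, was 49.9% per kb of transcript, an alternative chosen after seeing the data. Leaving out each tumor in turn gave medians of 532 to 597 CPM, 2092 to 2159 CPM and 27.7 to 28.2%. Of all genes, 0 were related to the S-phase score in edgeR's test, against 153 with DESeq2, 23 with no filter on low counts and 0 to 35 with a tumor left out, the 35 being without tumor 1; the cause was not tested. The counts of 0 members of either class stayed at 0 in all 12 alternatives, with the mouse identifier's letters as a term (added after seeing the data) among them, with 0 to 0 when a tumor was left out. Other scalings moved the place of tumor 1 for 1 to 4 of the 28 members, and shifted the median log2 ratio of all genes from 0.09 to between -0.05 and 0.31. Of these, Hist1h2be became highest in tumor 1 under 3 scalings, and Hist2h3c2 was no longer highest without the 10 most abundant genes; Hist1h1d and Hist1h2ae were no longer lowest over all reads, nor was H2afy; H1f0 was no longer highest with TMM or DESeq2's size factors; the log2 ratios of H3f3b and H3f3a turned from -0.17 and -0.20 to 0.07 and 0.03 over all reads, and no other changed sign. Genes with few counts, such as Hist1h1d at 3 to 25 counts, limit the precision. No paired analysis was possible because there is 1 group.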
